A study of Bos taurus with 8 samples.

Results

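The genes described here build elastic fibers in the extracellular matrix of the bovine corpus luteum (CL), or cross-link them. The list held 10 symbols: ELN, FBN1, FBN2, FBLN1, FBLN2, FBLN5, EMILIN1, LOX, LOXL1 and LOXL2. They were matched to the gene symbols of the table, ignoring case. Of these, 9 had a row among the 13861 genes measured, and 1, FBN2, had none, so FBN2 was not analysed here. The study compared luteal mRNA between pregnancy and the estrous cycle at the time when maternal recognition of pregnancy takes place. The pregnant group held 4 Holstein heifers that had been bred and were pregnant on day 17 (replicates 1, 2, 4 and 5). The cyclic group held 4 unbred Holstein heifers on day 17 of the estrous cycle (replicates 1 to 4). Each heifer gave a single CL, so n = 4 animals per group, and the p-values measure the spread between animals. The CL was collected at slaughter and snap frozen whole, so a value is an average over all its cell types. In such bulk tissue, fewer cells of a type and less RNA per cell cannot be told apart.

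An elastic fiber has a core of cross-linked elastin laid down on a scaffold of fibrillin microfibrils. Tropoelastin, the soluble product of ELN, is guided to the microfibrils by fibulins and by EMILIN1, which lies at the border between core and microfibril. Lysyl oxidases then oxidize lysine residues of elastin and of collagens, which makes the cross-links that render both insoluble. In the CL, matrix of this kind surrounds the blood vessels and the strands of connective tissue between luteal cells. The microfibrils and their partners also bind latent growth factors of the TGF-beta family.

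Abundance is given as a normalized read count, in which the reads of a gene were divided by 1 scaling factor per CL. The tables held between 42770725 and 48294165 reads per CL, with 43654655 to 48294165 in pregnant and 42770725 to 47076454 in cyclic heifers. Every gene of the table had at least 8 reads in some CL. The 9 genes together took 0.189, 0.174, 0.229 and 0.171% of the reads in the CL of pregnancy, against 0.182, 0.182, 0.201 and 0.188% in the CL of the estrous cycle. The lowest value among them was 1152 reads, for FBLN2 in pregnant replicate 4. At these counts the spread between heifers, and not read depth, set the precision. Levels are compared between CL for the same gene and not between genes, because longer transcripts yield more reads.

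ELN, of the elastic core, and EMILIN1, of its border, had mean differences in opposite directions. From the fitted log2 values, ELN mRNA was 54.1% higher in the CL of pregnancy than in the CL of the estrous cycle, and EMILIN1 mRNA differed by -30.3%. LOX also had a higher mean in pregnancy, and LOXL1 and LOXL2 had lower means, with some overlap of the groups for each. The means of FBN1 and the fibulins differed by less than 1 SD of the pregnant group. None of these differences passed limma with Benjamini-Hochberg adjustment over all genes at 0.05: 0 of 9 did, against 3 of 13861 genes in the table, or 0.0216%. At an unadjusted limma p under 0.05, 3 of the 9 genes were counted, ELN with higher and LOXL1 and EMILIN1 with lower values in pregnancy, against 1041 genes or 7.51% of the table. DESeq2 on the reads passed 1 of the 9 (EMILIN1) and 94 of 13009 genes, or 0.723%. The edgeR quasi-likelihood test and limma-voom on the same reads passed 0 of the 9. Fold changes are pregnant minus cyclic on the scale of log2(normalized count + 1). Of the 9 genes, 3 had fold changes above 0 and 6 below 0, with a median of -0.03. Over all genes the median was 0.0005, and 49.9% of genes lay below 0.

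**Figure D1:**
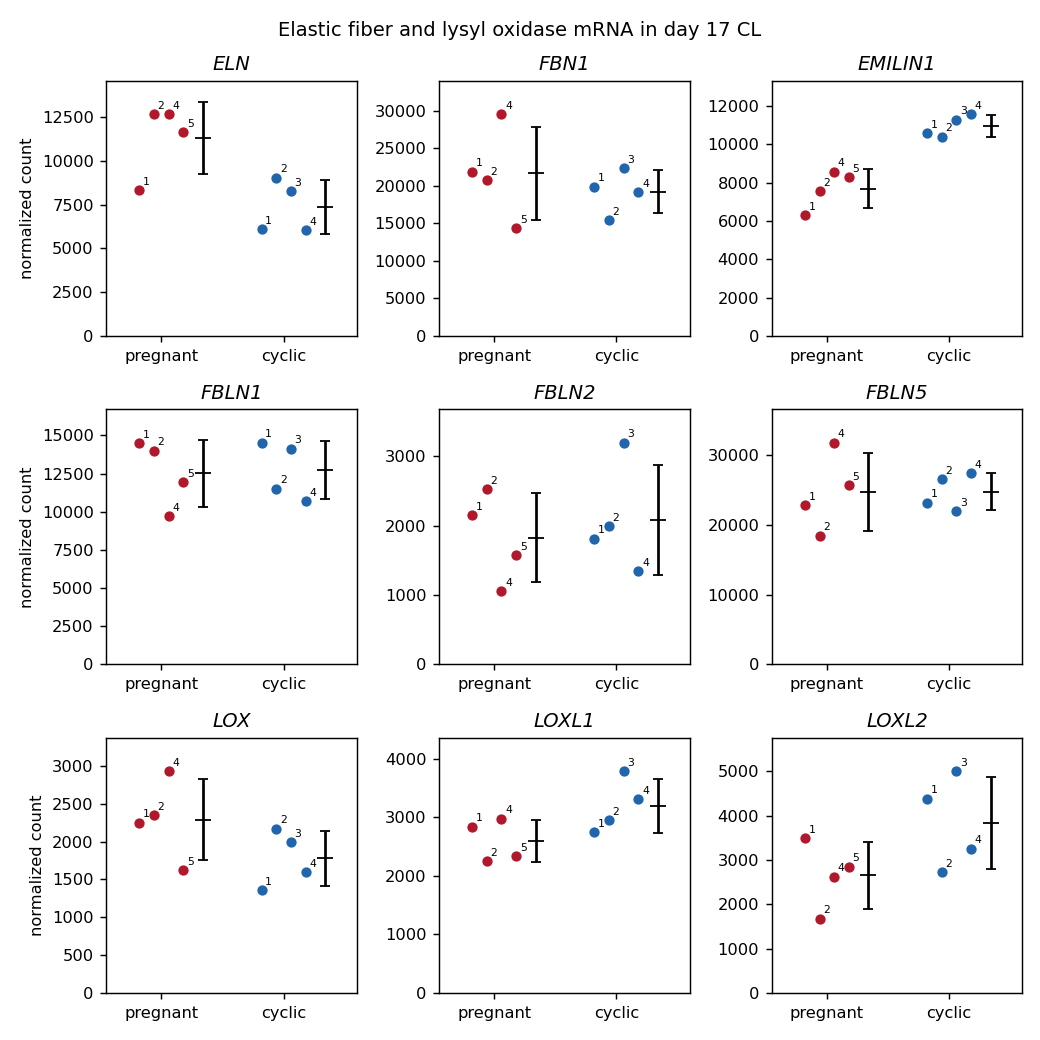
Normalized read counts of the 9 genes in each CL, with a panel for each gene. Each point is the CL of 1 heifer, pregnant on the left and cyclic on the right, and bars give the mean and SD of 4 heifers. EMILIN1 is the gene whose groups did not overlap, between 6302 and 8585 in pregnant and between 10401 and 11575 in cyclic heifers.

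EMILIN1 (ENSBTAG00000011324) encodes a glycoprotein that joins elastin to the microfibril and holds back processing of the TGF-beta precursor. In the CL of pregnancy its normalized counts were 6302, 7559.7, 8585 and 8298, against 10600.5, 10401, 11302 and 11575 in the CL of the estrous cycle. All 4 pregnant heifers lay below all 4 cyclic heifers. Among the 9 genes it was the only 1 without overlap, against 596 genes or 4.30% of the table in either direction and 314 genes or 2.27% in this direction. The means were 7686 ± 1019 in pregnant and 10969 ± 559 in cyclic heifers (SD, n = 4 each). The log2 fold change was -0.52 (SE 0.10, 95% interval -0.76 to -0.29), which corresponds to a change of -30.3% with bounds of -40.8 and -18.1%. The unadjusted limma p was 0.000578, the rank 19 of 13861, and the adjusted p 0.421.

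The call for EMILIN1 depended on the test. The DESeq2 estimate was -0.51 with an adjusted p of 0.00964, while the adjusted p was 0.439 in edgeR and 0.465 in limma-voom. Over these tests and the other limma settings tried, including each CL left out of limma, its adjusted p ran between 0.00964 and 0.779. When DESeq2 was repeated with each CL left out, a check chosen after seeing the data, EMILIN1 passed in 6 of 8 fits, with adjusted p between 0.00312 and 0.0890 over the 8. It missed the threshold without cyclic replicate 3 (DESeq2 adjusted p = 0.0890) and without cyclic replicate 4 (DESeq2 adjusted p = 0.0560). Over all genes, the 8 fits passed between 41 and 147, with 41 without cyclic replicate 3 and 93 without cyclic replicate 4. In limma the fold change kept its sign whichever CL was left out, between -0.58 and -0.43.

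ELN (ENSBTAG00000019517) encodes tropoelastin, the monomer of the elastic core. Its normalized counts were 8332, 12653, 12663 and 11643 in the CL of pregnancy, against 6112, 9045, 8269.6 and 6027 in the CL of the estrous cycle. The groups overlapped through pregnant replicate 1, and the other 3 pregnant heifers lay above every cyclic heifer. The means were 11323 ± 2051 in pregnant and 7364 ± 1528 in cyclic heifers (SD, n = 4 each). The log2 fold change was 0.62 (SE 0.17, 95% interval 0.24 to 1.01), or 54.1% higher in pregnancy with bounds of 17.8 and 102%. The unadjusted limma p was 0.00503 and the rank 135, but the adjusted p was 0.517. The DESeq2 adjusted p was 0.0917, and that of edgeR 0.50. ELN passed DESeq2 without pregnant replicate 1 (adjusted p = 0.0165) and without cyclic replicate 2 (adjusted p = 0.0179), but in none of the other 6 such fits. Over all genes, 54 passed without pregnant replicate 1 and 147 without cyclic replicate 2. With each CL left out the limma fold change was between 0.54 and 0.76.

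**Figure D2:**
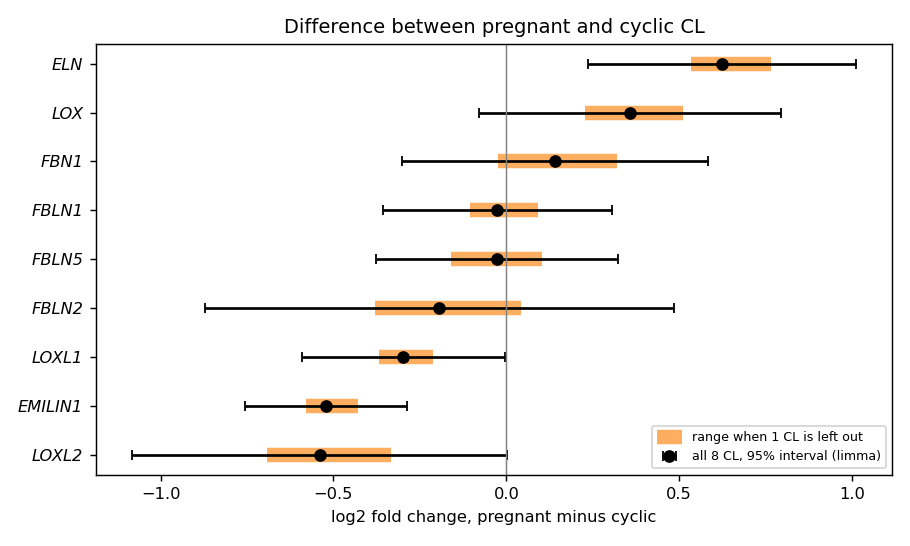
Log2 fold change of each of the 9 genes, pregnant minus cyclic, on the scale of log2(normalized count + 1). Points are limma estimates and horizontal bars 95% intervals. The intervals of ELN (0.24 to 1.01), LOXL1 (-0.59 to -0.01) and EMILIN1 (-0.76 to -0.29) leave out 0, before any adjustment over genes.

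FBN1 (ENSBTAG00000002278) encodes fibrillin-1, the main structural unit of the microfibril. Normalized counts were 21883, 20763, 29505 and 14380.1 in the CL of pregnancy, against 19870.5, 15402, 22300.3 and 19164 in the CL of the estrous cycle. The pregnant group held both the highest and the lowest CL, so the cyclic values fell within its range. The means were 21633 ± 6202 in pregnant and 19184 ± 2857 in cyclic heifers (SD, n = 4 each). The log2 fold change was 0.14 (SE 0.20, 95% interval -0.30 to 0.58, limma adjusted p = 0.885). It was -0.02, close to 0, without pregnant replicate 4 and 0.32 without pregnant replicate 5, so leaving out a single CL could change its sign or its size.

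The fibulins are glycoproteins that bind tropoelastin, fibrillin or basement membrane proteins. FBLN5 is required for elastic fiber assembly in mice, FBLN1 is found within the elastic core, and FBLN2 lies at the border of the core with the microfibrils. None of the 3 separated the groups. FBLN5 (ENSBTAG00000018123) had 22735, 18377, 31697 and 25619.8 normalized counts in pregnant heifers, against 23096, 26500.0, 21908 and 27349.7 in cyclic heifers. Both the highest and the lowest FBLN5 value came from pregnant heifers, replicates 4 and 2. Its log2 fold change was -0.03 (SE 0.16, 95% interval -0.38 to 0.32, limma adjusted p = 0.978).

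FBLN1 (ENSBTAG00000012088) had 14484, 14008, 9693 and 11921 normalized counts in pregnant heifers, against 14519, 11505, 14127 and 10700.2 in cyclic heifers. Its values overlapped over most of their range, with a log2 fold change of -0.03 (SE 0.15, 95% interval -0.36 to 0.30, limma adjusted p = 0.978). FBLN2 (ENSBTAG00000004014) had 2152, 2529, 1059.8 and 1572 normalized counts in pregnant heifers, against 1812, 1992, 3197 and 1345 in cyclic heifers. It was the most variable of the 9 genes, with a CV of 35.3% in pregnant and 37.8% in cyclic heifers. Its log2 fold change was -0.19 (SE 0.30, 95% interval -0.87 to 0.49, limma adjusted p = 0.893). An interval of this width does not show that FBLN2 was the same in both groups.

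The fibulins were correlated with each other across heifers, before adjustment over pairs. Across the 8 CL, FBLN5 was high where FBLN1 was low: Pearson's r of the log2 values was -0.88 (exact permutation p = 0.00538, adjusted over 36 pairs p = 0.161) and Spearman's rho was -0.76 (exact permutation p = 0.0368, adjusted p = 0.331). FBLN5 and FBLN2 had an r of -0.84 (exact permutation p = 0.01, adjusted p = 0.161) and a rho of -0.90 (exact permutation p = 0.00456, adjusted p = 0.164). FBLN1 and FBLN2 had an r of 0.82 (exact permutation p = 0.0134, adjusted p = 0.161) and a rho of 0.64 (exact permutation p = 0.0962, adjusted p = 0.414). None of the 36 pairs of the 9 genes passed the adjustment, and 18 had an r above 0.

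The relations were as large within the groups, where r of the deviations from the group means was -0.88 for FBLN1 with FBLN5, -0.87 for FBLN2 with FBLN5 and 0.83 for FBLN1 with FBLN2. Pregnant replicate 4 was far out in all of them, with the highest FBLN5 and the lowest FBLN1 and FBLN2. Without the 2 CL farthest from the median of FBLN1 (pregnant replicate 4 and cyclic replicate 4), r with FBLN5 was -0.70 and with FBLN2 0.48. Without those farthest on FBLN2 (pregnant replicate 4 and cyclic replicate 3), r of FBLN2 with FBLN5 was -0.82. The same exclusion left an r of 0.70 for FBLN1 with FBLN2. The normalized counts of 7 macrophage markers summed to 9678, 6938, 14864 and 10184 in pregnant heifers and to 6944, 11804, 12075 and 11446 in cyclic heifers. Their highest and lowest sums fell in the same CL as those of FBLN5, although cyclic replicate 1 was nearly as low, and their part in the FBLN5 values was not tested.

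**Figure D3:**
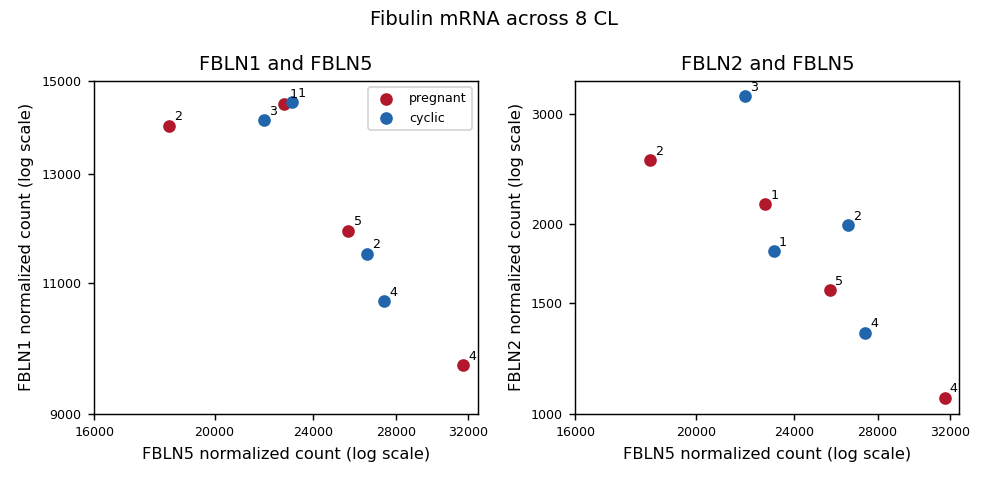
Log2 normalized counts of FBLN1 and of FBLN2 against FBLN5, with a point for each CL and pregnant and cyclic heifers in separate colors. FBLN5 falls as FBLN1 (r = -0.88) and FBLN2 (r = -0.84) rise across the 8 CL, with both groups spread along the same trend.

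The lysyl oxidases are copper enzymes that cross-link elastin and collagen. LOX is the founding member, LOXL1 is needed for renewal of elastic fibers in mice, and LOXL2 acts on collagen IV of basement membranes. LOX (ENSBTAG00000012994) had 2250.3, 2352, 2932 and 1624 normalized counts in the CL of pregnancy, against 1359, 2169, 1989.6 and 1596 in the CL of the estrous cycle. Of the pregnant heifers, 3 of 4 lay above every cyclic heifer, and replicate 5 fell among them. The means were 2289 ± 536 in pregnant and 1778 ± 368 in cyclic heifers (SD, n = 4 each). The log2 fold change was 0.36 (SE 0.20, 95% interval -0.08 to 0.79). The unadjusted limma p was 0.0985 and the adjusted p 0.70. With each CL left out the fold change lay between 0.23, without pregnant replicate 4, and 0.51, without pregnant replicate 5.

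LOXL1 (ENSBTAG00000009086) had 2843, 2251, 2979 and 2335 normalized counts in pregnant heifers, against 2748, 2949, 3790.4 and 3313 in cyclic heifers. Pregnant replicates 2 and 5 lay below every cyclic heifer, and replicates 1 and 4 overlapped with them. The means were 2602 ± 363 in pregnant and 3200.1 ± 458 in cyclic heifers (SD, n = 4 each). The log2 fold change was -0.30 (SE 0.13, 95% interval -0.59 to -0.01), and it lay between -0.37 and -0.21 with each CL left out. The unadjusted limma p was 0.0467 and the adjusted p 0.652. The unadjusted limma p was above 0.05 without pregnant replicate 2 (0.126), pregnant replicate 5 (0.111), cyclic replicate 3 (0.138) or cyclic replicate 4 (0.0964).

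LOXL2 (ENSBTAG00000006214) had 3487, 1672, 2616 and 2846 normalized counts in pregnant heifers, against 4383, 2724, 5000.1 and 3254 in cyclic heifers. Pregnant replicates 2 and 4 lay below every cyclic heifer. The means were 2655 ± 752 in pregnant and 3840.3 ± 1038 in cyclic heifers (SD, n = 4 each). The log2 fold change was -0.54 (SE 0.24, 95% interval -1.08 to 0.0021), and it was -0.33 without pregnant replicate 2, the lowest CL. The unadjusted limma p was 0.0507 and the adjusted p 0.660. LOXL1 and LOXL2 had an r of 0.70 across the 8 CL (exact permutation p = 0.0515, adjusted p = 0.343) and a rho of 0.43. Without pregnant replicate 2 and cyclic replicate 3 the r was -0.003, so this relation rested on those CL.

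The 9 genes did not vary as a unit between heifers. Pregnant replicate 4 had the highest values of ELN, FBN1, FBLN5 and LOX and the lowest of FBLN1 and FBLN2. Pregnant replicate 2 had the lowest FBLN5, LOXL1 and LOXL2, and cyclic replicate 3 the highest FBLN2, LOXL1 and LOXL2. From the lowest to the highest of the 8 CL, the values spanned 3.02-fold for FBLN2 and 2.99-fold for LOXL2, but 1.5-fold for FBLN1 and 1.68-fold for LOXL1. ELN and LOX had an r of 0.70 (exact permutation p = 0.0571, adjusted p = 0.343) and a rho of 0.81, but r was 0.54 for deviations from the group means, and 0.43 or 0.38 without the 2 CL farthest from the median of ELN or of LOX. ELN and LOXL2 had an r of -0.70 (exact permutation p = 0.0483, adjusted p = 0.343) and -0.47 for such deviations, and it was -0.46 without the 2 CL farthest on ELN and -0.79 without those farthest on LOXL2. ELN and EMILIN1 had an r of -0.56 across the 8 CL (exact permutation p = 0.150, adjusted p = 0.599). It was -0.46 without the 2 CL farthest on ELN and -0.86 without those farthest on EMILIN1. For deviations from the group means the r was 0.48, so its sign changed once the group means were taken out, and this value was not tested.

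**Figure D4:**
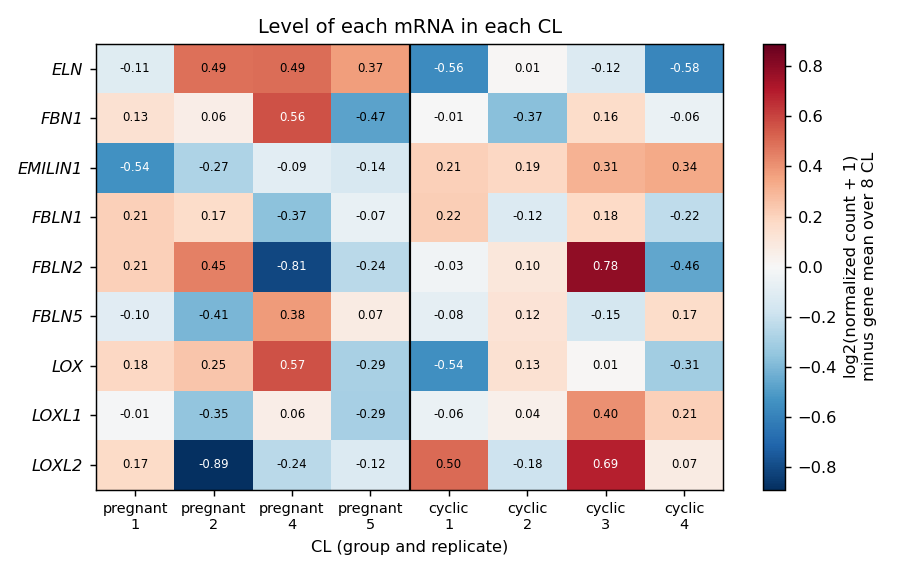
Log2 level of each of the 9 genes in each CL, less the mean of that gene over the 8 CL, with pregnant heifers left of cyclic heifers. Pregnant replicate 4 stands high for ELN, FBN1, FBLN5 and LOX and low for FBLN1 and FBLN2, and EMILIN1 is low in all 4 pregnant heifers.

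Ratios of paired genes within a CL do not depend on the scaling factor of that CL. These pairs were chosen after their values were seen and are described without a test, and the size of a ratio also carries the lengths of both transcripts. ELN over EMILIN1 was 1.32, 1.67, 1.48 and 1.40 in the CL of pregnancy, against 0.577, 0.870, 0.732 and 0.521 in the CL of the estrous cycle. The groups did not overlap, and the means were 1.47 ± 0.150 in pregnant and 0.675 ± 0.158 in cyclic heifers (SD, n = 4 each). ELN had the highest fold change of the listed genes, and EMILIN1 alone was already without overlap in the other direction. The choice of this pair therefore largely set the separation, and the share of other gene pairs without overlap was not computed. LOX over LOXL1 was 0.791, 1.04, 0.984 and 0.695 in pregnant heifers, against 0.494, 0.736, 0.525 and 0.482 in cyclic heifers. Here pregnant replicate 5 lay below cyclic replicate 2, and the means were 0.879 ± 0.163 in pregnant and 0.559 ± 0.119 in cyclic heifers. LOX over LOXL2 averaged 0.936 ± 0.397 in pregnant and 0.499 ± 0.212 in cyclic heifers. LOXL1 over LOXL2 averaged 1.03 ± 0.259 in pregnant and 0.871 ± 0.215 in cyclic heifers, a difference within the spread of either group. The ratios of ELN to its other partners overlapped between groups. ELN over FBN1 lay between 0.381 and 0.810 in pregnant and between 0.308 and 0.587 in cyclic heifers, and ELN over FBLN5 between 0.366 and 0.689 in pregnant and between 0.220 and 0.377 in cyclic heifers.

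**Figure D5:**
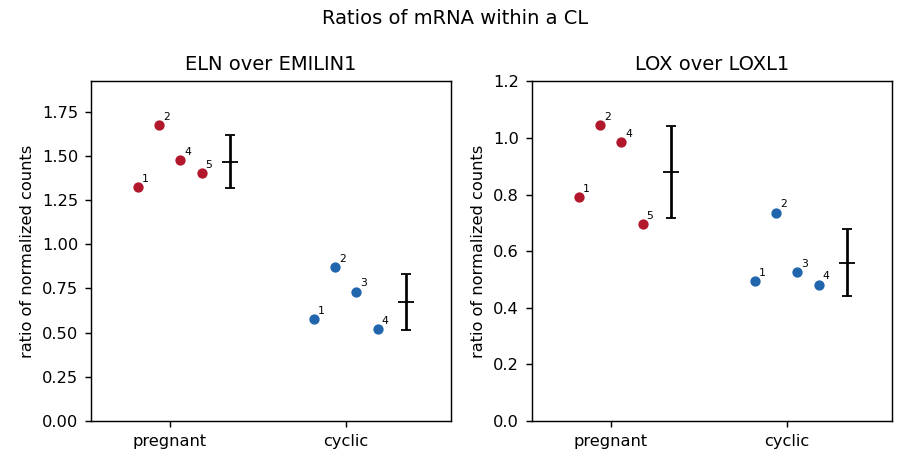
Ratios of the normalized counts of paired genes within each CL, pregnant left of cyclic, with the mean and SD of 4 heifers. ELN over EMILIN1 lies between 1.32 and 1.67 in pregnant and between 0.521 and 0.870 in cyclic heifers. This pair was chosen after its values were seen, and EMILIN1 alone was already without overlap.

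Other genes of the elastic fiber were taken from lists chosen by their known function. Of 25 further microfibril and elastic fiber genes, 20 had a row. None passed limma after adjustment (smallest adjusted p = 0.628), 10 fold changes lay above 0 and 10 below, with a median of 0.08. At an unadjusted limma p under 0.05, 2 of the 20 were counted with higher values in pregnancy and 0 with lower values, a share near the 7.51% of the table. LTBP2 (ENSBTAG00000021957), a microfibril protein related to the carriers of latent TGF-beta, had 2427, 4308, 3834 and 1430.5 normalized counts in pregnant heifers, against 1246, 1648, 2469.9 and 816 in cyclic heifers. Its groups overlapped through pregnant replicates 1 and 5 (log2 fold change 0.95, SE 0.39, limma adjusted p = 0.628). MMRN1 (ENSBTAG00000010285), an EMILIN family member of platelets and endothelium, had 2749, 3667, 3369.9 and 1945 in pregnant heifers, against 2032, 1679, 2904 and 1243 in cyclic heifers (log2 fold change 0.61, SE 0.26, limma adjusted p = 0.648). Its groups overlapped too, since cyclic replicate 3 lay above pregnant replicates 1 and 5.

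LTBP1, a carrier of latent TGF-beta and the gene of this list with the most reads, averaged 9019 ± 576 in pregnant and 8112 ± 1549 in cyclic heifers (log2 fold change 0.17, limma adjusted p = 0.777). Singled out after its values were seen, ADAMTS10 (ENSBTAG00000014207), a protease that binds fibrillin-1, was the only gene of the list whose groups did not overlap, 1 of 20 against 4.30% of the table, a share near that of all genes. It had 1426, 1518, 1644 and 1489 normalized counts in pregnant heifers, against 902, 1364, 1411 and 1276 in cyclic heifers (log2 fold change 0.31, limma adjusted p = 0.661). EMILIN2, a relative of EMILIN1 also chosen afterwards, averaged 5676 ± 2790 in pregnant and 4151 ± 364 in cyclic heifers. Pregnant replicate 2 alone, with 9820, set that pregnant mean apart (log2 fold change 0.35, limma adjusted p = 0.759).

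Of 13 genes for other lysyl oxidases, their activation and their copper supply, 12 had a row. Of these, 0 passed limma at an adjusted or an unadjusted p under 0.05 (smallest adjusted p = 0.668), 5 lay above 0 and 7 below, and the median was -0.04. FN1, the fibronectin scaffold on which LOX is activated, had the highest mean, 142284 ± 31706 in pregnant and 110731 ± 18426 in cyclic heifers (log2 fold change 0.35, SE 0.18, limma adjusted p = 0.689). The remaining enzymes of the family, chosen after their values were seen, also overlapped: LOXL3 averaged 941 ± 102 in pregnant and 1072 ± 79.5 in cyclic heifers, and LOXL4 298 ± 124 in pregnant and 449 ± 398 in cyclic heifers. BMP1, the protease that releases active LOX, averaged 8708 ± 2321 in pregnant and 8038 ± 812 in cyclic heifers.

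Of 11 elastases, 7 had a row, with 3 above 0, 4 below, a median of -0.03 and 0 past limma at an adjusted or an unadjusted p under 0.05 (smallest adjusted p = 0.661). MMP2, a gelatinase that also cleaves elastin, had the highest mean, 25677 ± 3636 in pregnant and 25658 ± 4218 in cyclic heifers. All 12 integrin and elastin receptor genes had a row, with 7 above 0, 5 below, a median of 0.0035 and 0 past adjustment in limma (smallest adjusted p = 0.647). ITGA9 (ENSBTAG00000016566), whose integrin binds EMILIN1, was the 1 gene of 12 counted at an unadjusted limma p under 0.05, near the 7.51% of the table. It had 4994, 5882, 5031 and 4300.0 normalized counts in pregnant heifers, against 3347, 3339, 4708 and 4705 in cyclic heifers (log2 fold change 0.34, SE 0.15, limma adjusted p = 0.647). ITGB5, the receptor gene with the highest mean, averaged 112606 ± 14093 in pregnant and 102001 ± 6323 in cyclic heifers.

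Cell type markers bear on these values because several cell types make elastic fibers. Steroidogenic markers of luteal cells were high in all 8 CL, with 6 of 7 in the table, the lowest mean at 19260 and sums of 1538590 to 2278060 in pregnant and 1446710 to 1732940 in cyclic heifers. All 9 fibroblast markers had fold changes below 0 (median -0.18), with sums of 699470 to 912677 in pregnant and 744111 to 1164900 in cyclic heifers. DCN and DPT, which encode a collagen-binding proteoglycan and a matrix protein, had no overlap between groups, or 2 of 9 against 2.27% of the table in this direction, with log2 fold changes of -0.41 (limma adjusted p = 0.550) and -0.90 (limma adjusted p = 0.485). EMILIN1, LOXL1 and LOXL2 lay in the same direction as this list and ELN and LOX in the other. FBLN1, FBLN2 and FBLN5 also lay below 0 and FBN1 above 0, but their signs were not kept under every setting. The part of fibroblasts in these values was not tested.

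Sums over 8 of 9 pericyte and smooth muscle markers were 69963 to 95435 in pregnant and 73792 to 87476 in cyclic heifers, with 4 fold changes above 0, 4 below and a median of -0.01. DES, the muscle intermediate filament, was the 1 gene of 8 in that list at an unadjusted limma p under 0.05, against 7.51% of the table (log2 fold change 1.45, adjusted p = 0.622). Sums over all 8 endothelial markers were 99688 to 137746 in pregnant and 113886 to 122058 in cyclic heifers, with 3 fold changes above 0 and 5 below. All 7 macrophage markers had a row, with 1 above 0 and 6 below. Sums over 6 of 7 T cell markers were 2129 to 2671 in pregnant and 1150 to 2110 in cyclic heifers. They did not overlap, but the nearest sums, 2129 and 2110, lay close together. All 6 markers lay above 0 with a median of 0.55. By itself 1 of the 6, CD2, had no overlap, against 4.30% of the table in either direction. At an unadjusted limma p under 0.05, 4 of 6 were counted, against 7.51% of the table: CD3E, CD3G, CD2 and CD8A, with log2 fold changes of 0.55, 0.58, 0.55 and 0.70 (limma adjusted p between 0.576 and 0.659). The markers with the highest means had log2 fold changes of 0.30 for STAR (luteal), 0.18 for ENG (endothelial), 0.03 for RGS5 (pericyte), -0.14 for COL1A1 (fibroblast) and -0.10 for CSF1R (macrophage), none past adjustment in limma. No marker in any of these lists was limited to the lowest recorded value of 1 read in every CL. The part of these cell types in the elastic fiber values was not tested.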

How the data were processed

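Total RNA was extracted from the CL of 8 heifers, 4 pregnant and 4 cyclic, and sequenced as strand-specific libraries. The authors deposited a table of normalized counts, a signal in which the reads of each gene were divided by 1 factor per CL. For the aligner, the counter, the genome build and the annotation, the entry is the same: not given in the sources used here. When multiplied by that factor, 99.94% of the deposited values became whole reads (within 0.01). The authors' group means in the table were not used.

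Values were transformed as log2(normalized count + 1) after a filter on a mean of at least 1, which all 13861 genes passed. Pregnant and cyclic heifers were compared with limma 3.58.1 with a trend in R 4.3.3, without covariates, and p-values were adjusted over all genes with a threshold of 0.05. edgeR 4.0.16, DESeq2 1.42.0 and limma-voom were run on the recovered reads as alternatives, together with other pseudocounts (0.5 and 0.1), no filter, a mean of at least 5, quantile normalization, a replicate block and each CL left out. The fits were run on simulated data whose changes were larger than any among the elastic fiber genes and lysyl oxidases. That check did not cover differences of the size seen here. Correlations and ratios were computed with Python 3.11.15, pandas 2.3.3 and scipy 1.17.1.

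Genes were matched by symbol. The text names every listed elastic fiber gene and lysyl oxidase, and from each other functional or cell marker list the genes with an unadjusted limma p under 0.05 and the gene with the highest mean, with exceptions stated. Genes alike in pattern were the 3 with the highest Pearson correlation among genes with a symbol and a mean of at least 50. The genes and lists were chosen with earlier results of these data known. Sequences and coordinates were not used here.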

Additional observations from a re-analysis of the deposited data

How the results depend on the processing

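The number of genes past the adjusted threshold was 3 with limma on log2 values, 1 with edgeR, 1 with limma-voom, 94 with DESeq2 and 0 with a replicate block, and 1041 genes had an unadjusted p under 0.05. With each CL left out it ran between 1 and 4. Of the 9 elastic fiber genes and lysyl oxidases, 0 passed in limma, 1 with DESeq2 and 3 at an unadjusted p. The unadjusted count was 2 with quantile normalization, 5 with a replicate block and between 2 and 5 with each CL left out. Over all 13861 genes it was 1087, 1153 and between 824 and 1337 in those settings. ELN, LOX, LOXL1, LOXL2 and EMILIN1 kept the sign of their fold change under every setting tried. FBN1, FBLN1, FBLN2 and FBLN5 did not. With each CL left out, FBN1 ran between -0.025 and 0.32, FBLN1 between -0.11 and 0.091, FBLN2 between -0.38 and 0.044 and FBLN5 between -0.16 and 0.10. With a replicate block, FBLN1 had 0.046, FBLN2 0.083, FBN1 0.40, LOX 0.57 and LOXL1 -0.16, against 0.14, 0.36 and -0.30 for the last 3 without it. Pregnant replicate 5 and cyclic replicate 3 have no same-numbered partner, so with the block the difference came from replicates 1, 2 and 4 alone. Nothing in the labels pairs heifers by replicate number. The deviations of same-numbered CL from their group means correlated at 0.02, -0.05 and 0.01 for replicates 1, 2 and 4. CL with different numbers correlated between -0.10 and 0.18, so these values neither show nor exclude a pairing. In all, 140 of 153 alternative values of the 9 genes kept direction and side of the threshold, 12 reversed and 1 (EMILIN1 in DESeq2) passed it. The fit without a filter repeated the main fit, since all genes had passed the filter. The other pseudocounts and the stricter filter barely moved the fold changes, so the 153 include settings that could hardly differ. Further DESeq2 fits with each CL left out, chosen after seeing the data, passed EMILIN1 in 6 of 8. These fits passed between 41 and 147 genes of the table.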

Other observations

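Other genes whose log2 values across the 8 CL were most alike to each elastic fiber gene are given as a description, without a test. They were sought among 10546 genes, over only 8 CL, and the genes of a CL share its scaling factor. EMILIN1 was most like CTU1 (r = 0.97), ALKBH1 (0.96) and Jun (0.96), with 17 genes above 0.9. ELN was most like ZNF414, BHLHE41 and RABL2B (0.96 each), with 27 genes above 0.9. FBN1 had 65 such genes, led by MAP4 (0.97), CREBBP (0.97) and Eya3 (0.96). FBLN5 had 5, led by BOLA-DRB3 (0.96), a class II antigen presentation gene, GMFG (0.92) and AIF1 (0.91), a macrophage marker. AIF1 had 569, 306, 779 and 598 normalized counts in pregnant heifers, against 529, 776, 563 and 733 in cyclic heifers. Its extremes lay in pregnant replicates 4 and 2, as for FBLN5. Of the other macrophage markers, CSF1R and CD14 had both extremes there, but CD68, CD163, MRC1 and TYROBP did not.

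FBLN1 had 4 genes above 0.9, led by KIAA1737 (0.93), TPD52 (0.93) and TDP2 (0.91), and FBLN2 had 2, RYK (0.96) and CEPT1 (0.93), followed by AK5 (0.89). LOX had 9, led by SPEG (0.94), LAMB2 (0.94), which encodes a laminin chain of basement membranes, and SAMD14 (0.93). LOXL1 had 19, led by LAPTM4B (0.98), DNM1 (0.96) and LSP1 (0.95). LOXL2 had 18, led by MED6 (0.95), FAM171A1 (0.95) and SNX25 (0.94). The elastase MMP12, singled out after its values were seen, had 22.1, 1.0, 7.36 and 2.15 normalized counts in pregnant heifers, against 328, 3.86, 28.7 and 5.89 in cyclic heifers. Its log2 fold change of -2.02 (limma adjusted p = 0.731) came with most of the reads in cyclic replicate 1. Pregnant replicate 2 held only 1 read of MMP12, the lowest recorded value. Pregnant replicates 4 and 5 held 8 and 2 reads, and cyclic replicates 2 and 4 held 4 and 6, all near that floor.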
